A study of Mus musculus with 6 samples.

Results

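Telomerase is a ribonucleoprotein whose protein-coding genes measured here were Tert, Dkc1, Nhp2, Nop10, Gar1, Wrap53 and Naf1. They were taken from the count table by their symbols, and all 7 were found among its 15565 genes. All 7 also passed the filter on low counts and belonged to the 13288 genes tested. Hepatocytes were obtained by collagenase perfusion of the livers of C57BL/6 mice aged 2 months and sorted, and their polyadenylated RNA was sequenced. Each of 3 mice gave a TERT(High) and a TERT(Low) population, which made 6 libraries in 2 groups of 3. Every mouse, and so each of the groups, had the genotype Tert(CreERT2/+); R26(LSL-Tomato/+). The tamoxifen-dependent recombinase CreERT2 thus sits at 1 copy of Tert, and the red Tomato reporter, silent until recombination removes a stop cassette, at 1 copy of the Rosa26 locus. In such animals the Tert locus itself drives the recombinase, and a recombined cell stays red, so that the colour records activity of the locus at the time of recombination. The sources used here give neither tamoxifen dosing nor the sorting gates.

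TERT, the reverse transcriptase, copies the template within the RNA subunit Terc onto chromosome ends. Terc ends in a box H/ACA domain like that of the small nucleolar RNAs that guide pseudouridylation. This domain is held by dyskerin (Dkc1), Nhp2 and Nop10, which enter during transcription together with Naf1, and Gar1 takes the place of Naf1 in the mature particle. Wrap53, also called TCAB1, brings the particle to Cajal bodies. Apart from TERT these proteins also serve, wholly or in part, other H/ACA or Cajal body RNAs, and are made in most cells, whereas adult mouse tissues hold little Tert RNA.

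Library totals ranged from 53585174 counts (TERT(High), mouse 3) to 76164917 counts (TERT(Low), mouse 1). Levels are in CPM (counts scaled to library size by the trimmed mean of M values), as mean ± SD over 3 libraries. A log2 fold change is positive where TERT(High) cells had more of an RNA and comes with its standard error (SE). Genes were called at an edgeR quasi-likelihood p, adjusted by Benjamini-Hochberg over all 13288 genes, under 0.05. The fit treats libraries as independent, and each pair shares a mouse. The labelled cell type was checked on 8 hepatocyte markers, among them Alb and Hnf4a, whose summed level was 103314 to 117158 CPM in TERT(High) and 89669 to 105918 CPM in TERT(Low) libraries. Markers of 7 other cell types had far lower sums. The 7 endothelial markers reached 26.3 to 48.5 CPM in TERT(High) and 18.0 to 20 CPM in TERT(Low) libraries, with 3 of 7 called higher (4.43% of all tested genes were) and 6 of 7 wholly above (17.5%). Macrophage markers (7 of 7 in the table) reached 12.5 to 73.1 against 10.4 to 32.9 CPM and stellate cell markers (6 of 6) 3.95 to 141 against 4.03 to 9.12 CPM. Neutrophil markers (6 of 7, without Ly6g) summed to 1.99 to 7.0 CPM in TERT(High) and 0.313 to 1.48 CPM in TERT(Low) libraries. Erythroid markers (5 of 5) reached 15.5 to 141 against 31.9 to 51.9 CPM, and cholangiocyte markers (3 of 6, without Krt7, Cftr and Muc1) 2.05 to 11.7 against 2.13 to 3.26 CPM. T and NK cell markers (4 of 6, without Cd2 and Klrb1c) stood at 0.229 to 1.05 against 0.0681 to 1.12 CPM. The part of these other cells in the results below was not tested.

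TERT(High) hepatocytes held less RNA of the core H/ACA proteins Nhp2 and Nop10, the 2 members called. They were lower by 1.74-fold and 1.66-fold, and neither call held after a correction for transcript length and GC content, described further on. Dkc1, Tert, Naf1 and Gar1 had higher means in TERT(High) cells and Wrap53 a lower one, and none of these 5 passed the test. The count was 2 of 7 lower, against 3.71% of all tested genes, and 0 of 7 higher, against 4.43% (8.14% in either direction). At an unadjusted p under 0.05, 1 member was higher (Dkc1, against 16.3% of genes) and 2 were lower (12.4%). DESeq2, which called 24.9% of the genes it tested, and limma-voom, which called 7.49%, each found 0 members higher and the same 2 lower, with no adjusted p for Tert from DESeq2. The lowest TERT(High) library lay above the highest TERT(Low) library for Tert and Dkc1 (17.5% of tested genes do so), and the groups were separated the other way for Nhp2, Nop10 and Wrap53 (15.9%). The median log2 fold change of the 7 was 0.28, against -0.01 for all tested genes.

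**Figure D1:**
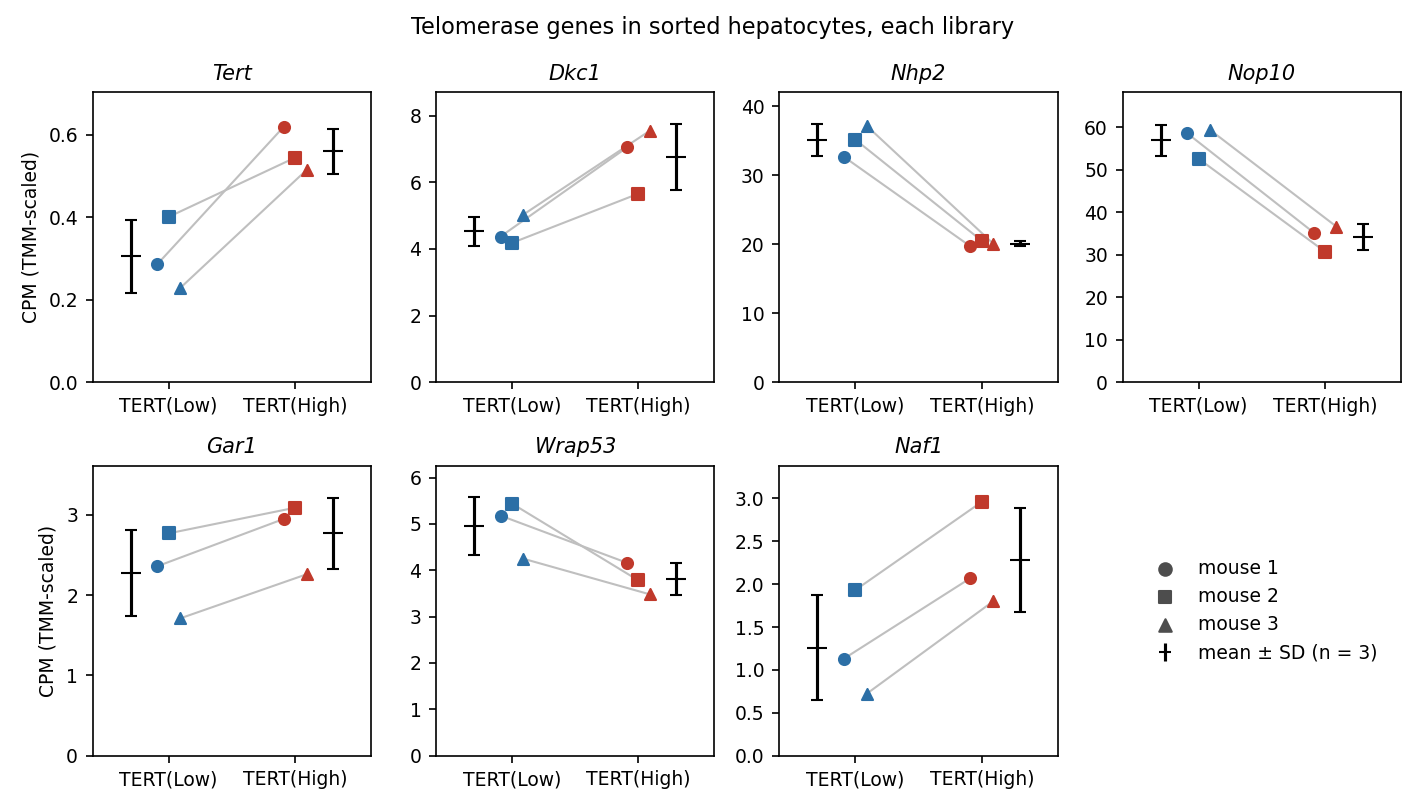
Level of each telomerase gene in CPM (linear axes from 0) in the TERT(Low) (blue) and TERT(High) (red) library of each mouse, joined by a grey line, with mean ± SD of 3 libraries in black. All 3 lines fall for Nhp2, Nop10 and Wrap53 and rise for Tert, Dkc1, Gar1 and Naf1, and the groups overlap for Gar1 and Naf1.

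Tert, the gene by which the populations are named (Entrez gene 21752, chromosome 13, 73626911 to 73649843, plus strand), was the least abundant of the 7. In mice 1, 2 and 3 the TERT(High) library held 38, 33 and 30 counts, with exact 95% Poisson intervals of 26.9 to 52.2, 22.7 to 46.3 and 20.2 to 42.8 counts. Their TERT(Low) libraries held 21, 21 and 12 counts, with intervals of 13 to 32.1, 13 to 32.1 and 6.20 to 21. These intervals cover counting error only. As raw counts, those of the 2 libraries overlapped within each mouse. They were not scaled to library totals, which in mouse 1 were 54129815 counts for TERT(High) and 76164917 counts for TERT(Low). The overlap of raw intervals is therefore no comparison of levels. Summed over libraries there were 101 counts (82.3 to 123) in TERT(High) and 54 counts (40.6 to 70.5) in TERT(Low) cells, or 0.588 and 0.288 CPM by library totals alone. Scaled, the 3 TERT(High) libraries stood at 0.620, 0.545 and 0.515 CPM and the TERT(Low) libraries at 0.286, 0.401 and 0.228 CPM. Every TERT(High) library was above every TERT(Low) library, by a margin of which the smallest was between mouse 3 and mouse 2. The log2 difference within a mouse was 1.12, 0.44 and 1.18. The fitted difference of 0.87 on the log2 scale (SE 0.44) had an edgeR adjusted p of 0.249. By exact permutation (two-sided) p was 0.10, which 3 against 3 cannot go below. Of the 15565 genes in the table Tert ranked 11915 by mean level. The summed counting intervals did not overlap, while the SE of the fit also holds the spread between libraries. No source used here says how reads of the CreERT2 allele were counted, so the values cannot be divided between the 2 alleles. In sorted bulk RNA, fewer cells that express a gene and less of its RNA per cell cannot be told apart.

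The RNA subunit Terc had 1, 0 and 0 counts in TERT(High) and 7, 2 and 2 counts in TERT(Low) libraries and was not tested. Terc carries no long poly(A) tail in its mature form, and libraries of polyadenylated RNA are not a measure of its level.

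Dkc1 encodes dyskerin, the pseudouridine synthase at the centre of the particle (Entrez gene 245474, chromosome X, 75095854 to 75109776, plus strand). Its level was 7.05, 5.66 and 7.55 CPM in the TERT(High) and 4.37, 4.18 and 5.03 CPM in the TERT(Low) libraries, mice in order. The groups did not overlap, and the means were 6.76 ± 0.977 and 4.53 ± 0.443 CPM. The fitted difference of 0.58 (log2, SE 0.19) had an unadjusted p of 0.0189 and an edgeR adjusted p of 0.0991. For Dkc1 the authors' deposited table lists 0.51 on the log2 scale (SE 0.24, adjusted p 0.0897). The last 44 bases of Dkc1 overlap Mpp1 on the other strand, which was at 32.2 ± 3.63 against 37.2 ± 0.804 CPM.

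Nhp2 and Nop10 bind beside dyskerin in the H/ACA core. Nhp2 (Entrez gene 52530, chromosome 11, 51619773 to 51623718, plus strand) was at 19.7, 20.5 and 20.1 CPM in TERT(High) libraries of mice 1, 2 and 3. In the TERT(Low) libraries it reached 32.7, 35.2 and 37.2 CPM. The TERT(High) libraries were within 1 CPM of each other, and all lay far below the TERT(Low) libraries. The means were 20.1 ± 0.416 CPM for TERT(High) and 35.1 ± 2.28 CPM for TERT(Low), or -0.80 on the log2 scale (SE 0.13, edgeR adjusted p = 0.0277). Nhp2 shares 46 bases at its end with Rmnd5b on the other strand, which was at 7.80 ± 1.48 against 8.69 ± 1.11 CPM.

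Nop10, the smallest protein of the core (Entrez gene 66181, chromosome 2, 112261926 to 112262898, plus strand), was at 35.2, 30.7 and 36.6 CPM in TERT(High) libraries. In TERT(Low) libraries it was at 58.6, 52.6 and 59.4 CPM, so mouse 2 had the lowest value of each group. The mean of 34.2 ± 3.07 CPM against 56.9 ± 3.69 CPM amounts to -0.73 on the log2 scale (SE 0.14, edgeR adjusted p = 0.0340). The log2 differences within mice were close to each other for Nop10 (-0.73, -0.78 and -0.70) and for Nhp2 (-0.73, -0.78 and -0.89). The authors' deposited table lists -0.76 (SE 0.17, adjusted p = 0.000220) for Nhp2 and -0.73 (SE 0.16, adjusted p = 8.93e-05) for Nop10.

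The calls of Nhp2 and Nop10 rested on the full set of libraries. With 1 library left out, edgeR kept both calls only without TERT(High) of mouse 1 (adjusted p = 0.0266 and 0.0346). Without TERT(High) of mouse 2 or 3, or TERT(Low) of mouse 1, 2 or 3, it called 0 genes of the whole table (1515 to 1958 had a positive and 1295 to 1507 a negative difference at an unadjusted p under 0.05). The adjusted p was then 0.0891 to 0.148 for Nhp2 and 0.0979 to 0.150 for Nop10. Scaled by library totals alone, the log2 fold changes were -0.65 (adjusted p = 0.0532) and -0.58 (adjusted p = 0.0982), while the median of all tested genes moved from -0.01 to 0.14.

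The promoters of the 2 lower genes and of Dkc1, which was higher in each mouse, are printed to show how their sequences compare, as 250 bases that end just before the annotated start (RefSeq, GRCm38.p6, plus strand, 5′ to 3′). Capitals mark matches, on either strand, to the GC box GGGCGG bound by Sp1 and Sp3, to the E-box CACGTG bound by Myc and Max, or to the ETS motif CCGGAAG bound by GABP. No match to 1 of these motifs contains a match to another.
Nhp2, chr11:51619523-51619772: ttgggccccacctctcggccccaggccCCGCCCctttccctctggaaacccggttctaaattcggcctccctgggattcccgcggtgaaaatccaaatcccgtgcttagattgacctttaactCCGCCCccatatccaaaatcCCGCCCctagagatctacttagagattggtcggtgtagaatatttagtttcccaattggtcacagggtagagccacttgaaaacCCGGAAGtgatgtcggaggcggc
Nop10, chr2:112261676-112261925: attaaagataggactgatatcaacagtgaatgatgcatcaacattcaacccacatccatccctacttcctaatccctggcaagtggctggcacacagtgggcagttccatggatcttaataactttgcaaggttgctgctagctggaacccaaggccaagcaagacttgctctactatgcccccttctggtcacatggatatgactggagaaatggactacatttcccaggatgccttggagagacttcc
Dkc1, chrX:75095604-75095853: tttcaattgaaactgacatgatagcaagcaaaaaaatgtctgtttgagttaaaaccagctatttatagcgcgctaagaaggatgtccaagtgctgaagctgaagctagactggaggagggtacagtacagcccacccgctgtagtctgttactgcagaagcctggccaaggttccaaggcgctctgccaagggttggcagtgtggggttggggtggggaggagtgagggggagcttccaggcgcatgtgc
The Nhp2 window held 3 GC boxes and 1 ETS motif, and the windows of Nop10 and Dkc1 held none of the 3 motifs. Among 12167 promoters of genes in the count table, 1 window per gene, 55.3% held a GC box, 7.9% an E-box and 12.4% an ETS motif. The promoter table held 6 of the 7 members, without Naf1. The Tert window (chr13:73626661-73626910) held 2 GC boxes and that of Gar1 1 ETS motif. The Gar1 window (129831397 to 129831646) runs slightly into Gar1 itself, which ends at 129831407 on the minus strand. Of the 2 annotated starts of Wrap53, 1 had an E-box (window 69580251 to 69580500), which lies within Trp53 (from 69580348). The window of the other start (69579250 to 69579499) lies within the coordinates given for Wrap53. Nhp2 and Nop10, which were both lower, differed in these matches and in GC content (54.8% and 47.2%). Such matches describe the sequence and show no binding.

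Gar1, which joins the mature particle (Entrez gene 68147, chromosome 3, 129824912 to 129831407, minus strand), was at 2.95, 3.09 and 2.26 CPM in TERT(High) and 2.36, 2.77 and 1.71 CPM in TERT(Low) libraries. It was higher in TERT(High) cells of each mouse, by 0.33, 0.16 and 0.41 on the log2 scale, but the groups overlapped. Mouse 3 had the lowest Gar1 in each population. edgeR put the difference at 0.28 (log2, SE 0.26, adjusted p = 0.536). The authors' deposited table lists 0.23 (SE 0.30, adjusted p = 0.610) for Gar1.

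Naf1, the assembly factor that Gar1 replaces (Entrez gene 234344, chromosome 8, 66859943 to 66890564, plus strand), was at 2.07, 2.96 and 1.80 CPM in TERT(High) libraries. The TERT(Low) libraries had 1.13, 1.93 and 0.721 CPM. Mouse 2 was highest and mouse 3 lowest in each population, and the groups overlapped. Within the mice the log2 differences were 0.87, 0.62 and 1.32. The fitted difference of 0.85 (log2, SE 0.41) had an edgeR adjusted p of 0.232, and 0.54 (SE 0.34, adjusted p = 0.236) was the value in the authors' deposited table. With the mouse as a block edgeR put Naf1 at 0.93 (SE 0.26, adjusted p = 0.081), which was not called either.

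Wrap53 (Entrez gene 216853, chromosome 11, 69561754 to 69580250, minus strand) was at 4.16, 3.78 and 3.48 CPM in TERT(High) and 5.18, 5.44 and 4.25 CPM in TERT(Low) libraries. All TERT(High) values were below all TERT(Low) values, the nearest being mouse 1 against mouse 3. edgeR put the difference at -0.38 (log2, SE 0.19, adjusted p = 0.240), and -0.40 (SE 0.25, adjusted p = 0.232) in the authors' deposited table. Wrap53 starts 97 bases from Trp53, the gene of the tumour suppressor p53, which lies head to head with it. The pseudogene Rps27-ps2 (342 bases) within Wrap53 and the snoRNA gene Gm25520 (118 bases) within Dkc1 were not analysed here. Trp53 was at 8.10 ± 2.83 against 7.08 ± 3.07 CPM (log2 fold change 0.20, SE 0.39, edgeR adjusted p = 0.770).

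**Figure D2:**
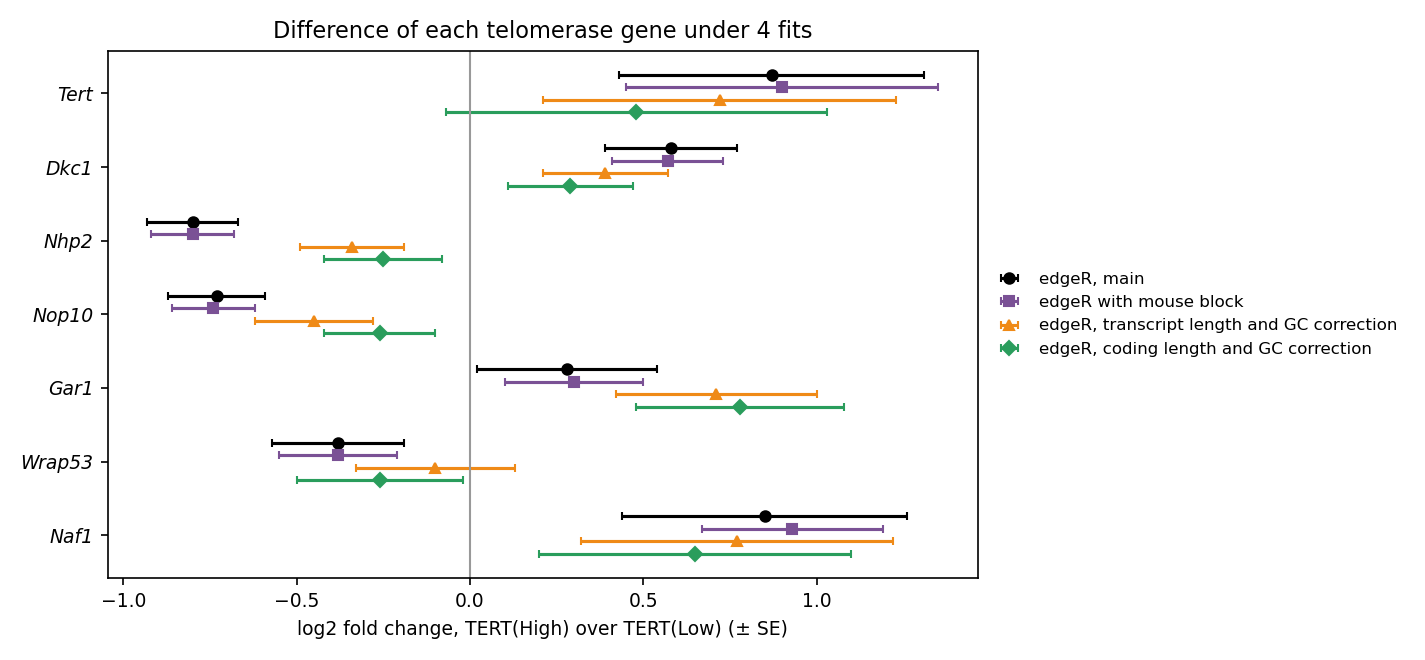
Log2 fold change (TERT(High) over TERT(Low), ± SE) of each telomerase gene in edgeR without and with the mouse as a block, and after removal of trends with GC content and with transcript or coding length. Nhp2 goes from -0.80 to -0.34 and Nop10 from -0.73 to -0.45 with transcript length, whereas Gar1 goes from 0.28 to 0.71.

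Ratios of 2 members' counts within a library need no scaling between libraries, and they were separated between the groups for some pairs of members and not for others. There were 0.359, 0.277 and 0.375 Dkc1 counts per Nhp2 count in the TERT(High) libraries, mice in order, and 0.134, 0.119 and 0.135 in the TERT(Low) libraries. For Dkc1 over Nop10 the ratios were 0.200, 0.184 and 0.206 against 0.0747, 0.0795 and 0.0847. Every TERT(High) ratio was above every TERT(Low) ratio, with mean log2 differences of 1.37 and 1.31. Nhp2 over Nop10, in contrast, was 0.592 ± 0.0650 against 0.618 ± 0.0562, and the groups overlapped. Naf1 over Gar1, the assembly factor over the protein that replaces it, was 0.702, 0.957 and 0.795 against 0.480, 0.697 and 0.422. These groups did not overlap, by a small margin between mouse 1 and mouse 2, and each mouse had the higher ratio in TERT(High) cells. Wrap53 over Dkc1 was 0.573 ± 0.104 against 1.11 ± 0.237, also without overlap. Dkc1 over Gar1 (2.52 ± 0.758 against 2.10 ± 0.749) and Tert over Dkc1 (0.0841 ± 0.0144 against 0.0689 ± 0.0255) overlapped between the groups. Dkc1 over Gar1 was nonetheless higher in the TERT(High) library of each mouse, by 0.36, 0.28 and 0.18 on the log2 scale. These ratios carry the relation with transcript length described further on. With the length and GC correction the log2 fold changes were 0.39 for Dkc1, -0.34 for Nhp2, -0.45 for Nop10, 0.71 for Gar1, 0.77 for Naf1 and -0.10 for Wrap53. Dkc1 then stood less far above Nhp2, Nop10 and Wrap53, and below Gar1. Naf1 stood close to Gar1, and below it with coding length in place of transcript length (0.65 against 0.78). In exact permutation tests (two-sided) the 4 ratios without overlap had p = 0.10, as low as 3 against 3 allows, and an adjusted p of 0.175 over the 7 ratios computed. Those 7 were picked from the possible pairs of members, and the share without overlap among pairs of other genes was not computed. Of single tested genes, 33.4% had groups that did not overlap.

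**Figure D3:**
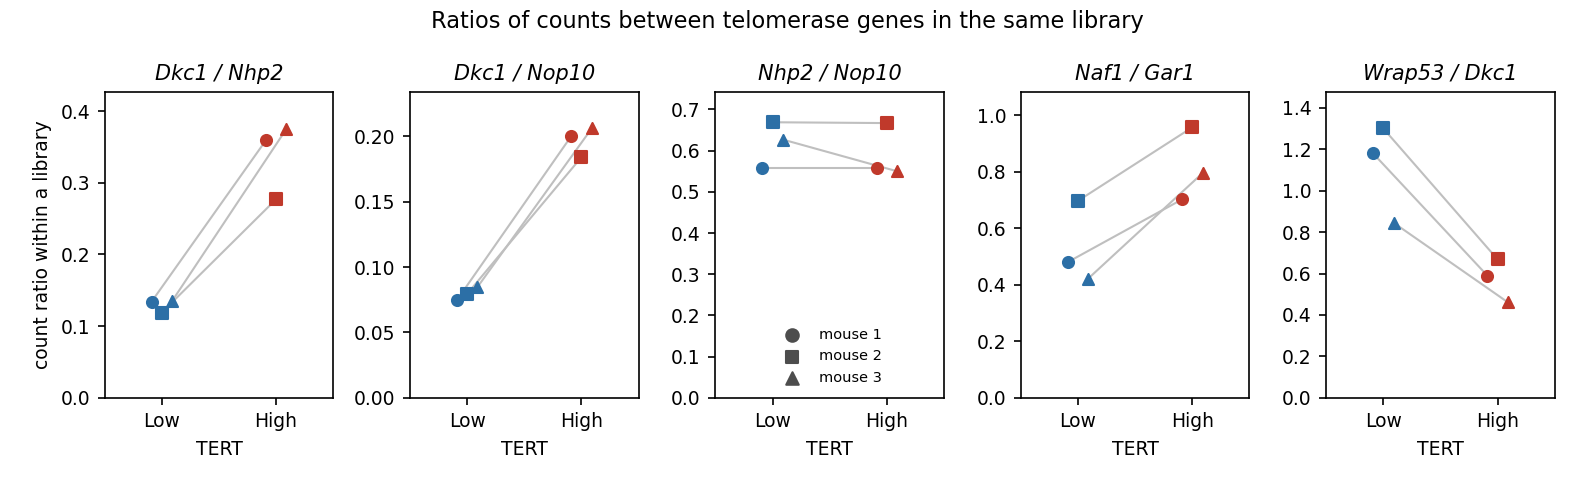
Ratio of raw counts of pairs of telomerase genes within each library (linear axes from 0), TERT(Low) in blue and TERT(High) in red, with the libraries of a mouse joined. Dkc1 per Nhp2 and per Nop10 is higher in the TERT(High) library of each mouse, at 0.277 to 0.375 and 0.184 to 0.206, and Nhp2 per Nop10 overlaps between groups.

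Per length, the RNAs of the particle covered a wide range. In CPM per kilobase of transcript the order over all libraries was Nop10 (41.0), Nhp2 (26.5), Wrap53 (2.32), Dkc1 (2.01), Gar1 (1.99), Naf1 (0.591) and Tert (0.10), beside a median of 2.36 for tested genes with a known length. Nop10 and Nhp2 stood apart in each group, at 30.8 ± 2.77 and 19.3 ± 0.399 in TERT(High) and 51.3 ± 3.33 and 33.6 ± 2.18 in TERT(Low) cells. In TERT(High) cells Dkc1 (2.41 ± 0.348), Gar1 (2.18 ± 0.348) and Wrap53 (2.01 ± 0.180) were within their spread of each other. In TERT(Low) cells Wrap53 (2.62 ± 0.331) was above Dkc1 (1.61 ± 0.158) and Gar1 (1.79 ± 0.421), which were within their spread. Naf1 (0.761 ± 0.202 and 0.421 ± 0.205) and Tert (0.130 ± 0.0126 and 0.0707 ± 0.0204) followed in TERT(High) and TERT(Low) cells. Per kilobase of coding sequence Nop10, Nhp2, Naf1 and Tert kept their places, and Dkc1 (4.42 ± 0.640) and Gar1 (4.0 ± 0.637) were above Wrap53 (2.39 ± 0.213) in TERT(High) cells. By that measure Gar1 (3.29 ± 0.772), Wrap53 (3.11 ± 0.392) and Dkc1 (2.96 ± 0.290) were within their spread of each other in TERT(Low) cells. The levels per length depend on the transcript chosen: that of Nop10 has 1109 nt around a coding sequence of 192 nt. This GENCODE transcript is longer than the whole RefSeq gene (112261926 to 112262898), so the 2 annotations of Nop10 differ. Its level per kilobase of transcript, its length quintile and its correction for transcript length all rest on the GENCODE length.

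Across all genes the log2 fold change rose with the length of the transcript, and the telomerase genes are set here beside genes of like length, in 5 length quintiles of the tested genes. Nhp2 (1042 nt), Nop10 (1109 nt) and Gar1 (1271 nt) belong to the shortest quintile, whose median log2 fold change was -0.46 and of which 14.7% were called lower and 0.0394% higher. Wrap53 (1891 nt) belongs to the next quintile, with a median of -0.16. The quintile of Dkc1 (2804 nt) and Naf1 (2990 nt) had a median of 0.06, and that of Tert (4313 nt) 0.28, with 5.16% called higher. Nhp2 and Nop10 were thus below, and Dkc1, Naf1 and Tert above, the median of genes of like length. Gar1, among the shortest transcripts, was above the median of its quintile too, and Wrap53 below. When trends with transcript length and GC content were taken out of each library, edgeR called 0 genes of the whole table, although the unadjusted p was under 0.05 for 1116 with more and 555 with less RNA in TERT(High) cells. Nhp2 then stood at -0.34 (SE 0.15, adjusted p = 0.414) and Nop10 at -0.45 (SE 0.17, adjusted p = 0.326). Gar1 went to 0.71 (SE 0.29, adjusted p = 0.368), and Tert, Naf1 and Dkc1 were at 0.72, 0.77 and 0.39. Wrap53 went from -0.38 to -0.10 (SE 0.23, edgeR adjusted p = 0.875). With coding length in place of transcript length, chosen after seeing the data, Nhp2 and Nop10 were at -0.25 and -0.26, Gar1 at 0.78 and Wrap53 at -0.26.

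**Figure D4:**
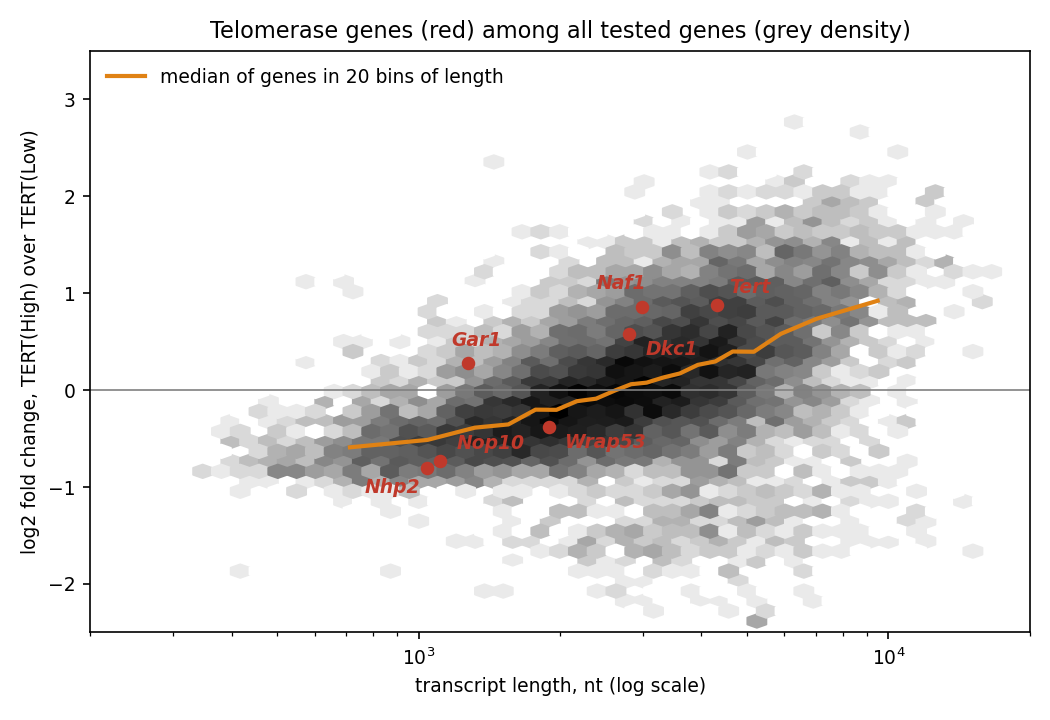
Log2 fold change against transcript length (log axis) for all tested genes with a known length (grey density) and the telomerase genes (red), with the median of length bins in orange. Nhp2, Nop10 and Wrap53 lie below the median line and Gar1, Dkc1, Naf1 and Tert above it.

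The genes whose profile over the 6 libraries was nearest to each member were found by the root mean square difference of log2 CPM, each gene centred on its own mean, among genes of at least 1 CPM. Nearest to Nhp2 were Zbed5 (0.0145), Lamtor4 (0.0197) and Trappc6a (0.0214), and nearest to Nop10 were Sin3b (0.0567), Bad (0.0595) and Ndufa4 (0.0608). All 6 of these genes were themselves called lower (3.71% of all tested genes were), with log2 fold changes from -0.84 to -0.70. They were picked for a profile like that of the member, so a like log2 fold change follows from the choice and adds no evidence. Wrap53 was closest to Gtf2h3 (0.0235), Nop9 (0.0424) and Snrpb (0.0454), and Dkc1 to Cul2 (0.0386), Gda (0.0633) and Senp5 (0.0643). The least distant genes were farther away for Tert (Itgav 0.0753, Patl1 0.0845, Uggt1 0.0852) and for Naf1 (Ski 0.137, Zbtb39 0.137, Amot 0.152). For Gar1 they were Thsd1 (0.062), Fam160a2 (0.0636) and Ptgfrn (0.0673). None of the genes nearest to Tert, Dkc1, Gar1, Wrap53 or Naf1 was called, which also reflects how they were picked.

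Around the particle, 7 lists of related genes held 95 genes, of which 88 were tested, with 6 called higher and 2 lower (4.43% and 3.71% of all tested genes were). The counts by other measures below stand beside shares of all genes. At an unadjusted p under 0.05, 16.3% of tested genes were higher and 12.4% lower. DESeq2 called 1544 higher and 1278 lower of 11317 genes, and limma-voom 531 and 464 of 13288. Beside the median log2 fold change of -0.01 over all tested genes, the list medians were -0.07 for H/ACA assembly, 0.33 for Terc processing, -0.28 for box C/D proteins, 0.48 for chaperones, 0.06 for pseudouridine synthases, -0.22 for cycling cells and 0.30 for Tert promoter factors. With the length and GC correction each list had 0 calls. Among 11 factors that assemble or localise H/ACA particles, 2 were higher and 1 lower (the same counts by the unadjusted p at 0.05 and by DESeq2, and 1 and 1 by limma-voom). Nolc1, a chaperone of small nucleolar particles in nucleoli and Cajal bodies, was at 7.0, 16.7 and 17.4 CPM in TERT(High) libraries and 4.69, 4.47 and 3.66 CPM in TERT(Low) libraries. Its TERT(High) library of mouse 1 was well under the other two but above all TERT(Low) libraries (log2 fold change 1.68, SE 0.36, edgeR adjusted p = 0.0417). Tgs1, which adds further methyl groups to the cap of Terc and other small RNAs, was at 5.82 ± 1.1 against 2.44 ± 0.510 CPM (1.25, SE 0.24, edgeR adjusted p = 0.0348). Pih1d1, a part of the R2TP complex that loads snoRNP proteins, was at 24.9 ± 1.09 against 37.9 ± 3.30 CPM (-0.61, SE 0.14, edgeR adjusted p = 0.0456). The core AAA+ ATPases of R2TP, Ruvbl1 and Ruvbl2, had log2 fold changes of -0.02 and -0.07, and Shq1, which holds dyskerin before assembly, of -0.43 (SE 0.20, edgeR adjusted p = 0.225). With the mouse as a block Nolc1 and Pih1d1 had edgeR adjusted p of 0.0578 and 0.0553.

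Of 14 tested genes that mature or degrade Terc, 2 were higher and 0 lower (by the unadjusted p at 0.05, 4 and 0; by DESeq2 4 and 0; by limma-voom 2 and 0). These were Zfc3h1, which links RNAs with tails of adenosine to the nuclear exosome, at 3.29 ± 0.431 against 1.31 ± 0.230 CPM, and Dis3, a nuclease of the exosome, at 4.01 ± 0.409 against 1.95 ± 0.302 CPM. Their log2 fold changes were 1.32 (SE 0.24) and 1.04 (SE 0.21), with edgeR adjusted p of 0.0321 and 0.0387. Papd5, the polymerase that adds such tails to Terc, was at 0.79 (SE 0.20, edgeR adjusted p = 0.0587, and 0.0482 with the mouse as a block), and Parn, the nuclease that trims them, at 0.09 (SE 0.19, edgeR adjusted p = 0.778). With the length and GC correction Papd5 went to 0.39 (edgeR adjusted p = 0.620).

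Among 8 proteins of the sister particle, the box C/D snoRNP, and its assembly factors, 2 were lower and 0 higher (by the unadjusted p at 0.05, 3 and 1; by DESeq2 3 and 1; by limma-voom 2 and 0). Snu13, which binds the kink-turn of box C/D RNAs and is a relative of Nhp2, was at 38.1, 25.6 and 28.1 CPM in TERT(High) and 60.6, 59.7 and 47.8 CPM in TERT(Low) libraries. The groups were well apart (log2 fold change -0.87, SE 0.20, edgeR adjusted p = 0.0479). The other gene was Pih1d1, which is on both lists. The methyltransferase Fbl and its partners Nop56 and Nop58 had log2 fold changes of -0.23, 0.11 and 0.97 and were not called by edgeR (adjusted p = 0.0549 for Nop58). With the length and GC correction Nop58, whose transcript has 9507 nt, went to 0.09 (edgeR adjusted p = 0.909).

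Of 18 chaperones and other proteins found with telomerase, edgeR called 0 in either direction (at an unadjusted p under 0.05, 6 higher and 1 lower; by DESeq2 5 and 1; by limma-voom 0 and 0). The most abundant were Hsp90ab1 (504 ± 213 against 331 ± 117 CPM) and Tcp1, a subunit of the TRiC chaperonin that folds Wrap53 (167 ± 11.4 against 163 ± 16.7 CPM). Of 12 pseudouridine synthases other than dyskerin edgeR also called 0 (2 higher and 1 lower by the unadjusted p at 0.05, 0 by DESeq2 and limma-voom), the most abundant being Rpusd3 (11.3 ± 0.368 against 13.6 ± 1.94 CPM) and Pus10 (12.7 ± 0.702 against 8.95 ± 1.30 CPM). Of 7 tested genes of cycling cells 0 were called by edgeR, DESeq2 or limma-voom, and 0 had an unadjusted edgeR p under 0.05. Pcna was at 23.3 ± 4.98 against 27.5 ± 3.12 CPM and Tyms at 11.8 ± 1.39 against 13.7 ± 0.686 CPM. The other 5 of the 12 listed genes did not pass the filter on low counts. Among them Mki67 had 38, 5 and 3 counts in TERT(High) and 4, 0 and 0 counts in TERT(Low) libraries, and Top2a had 27, 5 and 16 against 7, 0 and 2 counts. Ccnb1 had 11, 1 and 0 against 5, 1 and 0 counts, Aurkb 10, 3 and 6 against 10, 0 and 2, and Birc5 15, 6 and 8 against 15, 7 and 6. Among these 5 genes, which were not tested, Mki67 and Top2a had more raw counts in the TERT(High) library of each mouse. Scaled to CPM, Aurkb was also higher in each mouse, at 0.163, 0.0495 and 0.103 against 0.136, 0 and 0.0379 CPM. Ccnb1 and Birc5 were not higher in each mouse. Of the 7 tested genes, 2 had a log2 fold change above 0 and 5 below.

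Of 19 tested factors reported to act on the Tert promoter, 2 were higher and 0 lower (by the unadjusted p at 0.05, 6 and 0; by DESeq2 4 and 0; by limma-voom 2 and 0). Sp3 was at 16.0, 14.6 and 16.6 CPM in TERT(High) and 6.40, 8.06 and 8.59 CPM in TERT(Low) libraries, with a log2 fold change of 1.03 (SE 0.17, edgeR adjusted p = 0.0277). Sp1 was at 20 ± 2.85 against 11.5 ± 1.64 CPM (0.79, SE 0.18, edgeR adjusted p = 0.0465). Both are GC box factors with long transcripts (4181 and 7754 nt). After the correction for transcript length and GC content they had log2 fold changes of 0.51 and 0.10. Nolc1 and Snu13 had 1.55 and -0.88 in that correction (adjusted p = 0.187 and 0.195), Tgs1, Zfc3h1 and Dis3 were at 0.78, 0.73 and 0.54, and Pih1d1 at -0.17, none of them called. Myc was at 0.49 (SE 0.75, edgeR adjusted p = 0.707).

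**Figure D5:**
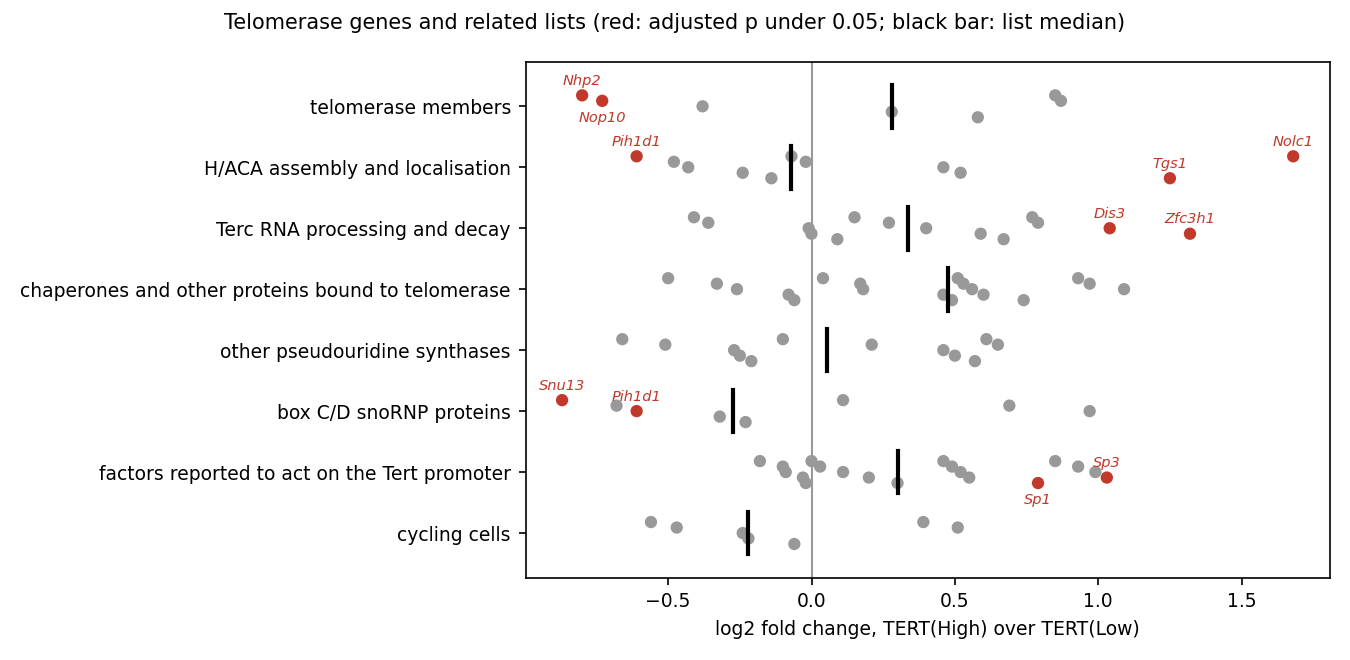
Log2 fold change (TERT(High) over TERT(Low)) of each tested gene of the telomerase particle and of 7 related lists, red where the edgeR adjusted p was under 0.05, with the list median as a black bar. Nhp2, Nop10, Pih1d1 and Snu13 lie on the lower side and Nolc1, Tgs1, Zfc3h1, Dis3, Sp1 and Sp3 on the higher side.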

How the data were processed

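The genome mm10, TopHat2 2.0.13, Trim Galore 0.4.0 and DESeq2 are named in the submitters' processing notes. No source used here names the counter, its handling of strand or its gene models, so values of overlapping genes are uncertain. The authors deposited raw counts for every gene in every library. In the authors' deposited table of results, which lists 10858 genes and 6 of the 7 members (not Tert), the signal value is DESeq2's baseMean. Its log2 fold changes, their fold (ratio) values and a test score compare TERT(High) with TERT(Low), per the file headers and the counts, and the authors' p-value columns hold p and adjusted p.

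Counts were tested with edgeR 4.0.16 (R 4.3.3): filterByExpr by group, TMM scaling and robust quasi-likelihood fits. The design named the group only. Per the labels a number marks a mouse that gave both libraries, and the correlations of their deviations from the group means were -0.089, 0.733 and 0.601. The mouse as a block was an alternative, as were other scalings, filters and tools (DESeq2 1.42.0, limma 3.58.1), length and GC corrections (splines with 4 degrees of freedom) and leaving out libraries. The SE is the absolute log2 fold change over the square root of F. Coordinates and promoters are from RefSeq GRCm38.p6, the assembly of mm10 (99.7% of genes matched by Entrez number), lengths from GENCODE M21 (94.5%), using the transcript with the longest coding sequence. Protein sequences were not used here.

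Members and lists were chosen with earlier results of these data known. Named are the members, Terc, genes overlapping a member, the 3 nearest profiles of each member, and of each related list the called genes (at most 4) or else its 2 most abundant genes. Trp53, Ruvbl1, Ruvbl2, Shq1, Papd5, Parn, Fbl, Nop56, Nop58, Myc, Mki67, Top2a, Ccnb1, Aurkb and Birc5 were added after their values were seen. The result of 1 further marker list is not reported here.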

Additional observations from a re-analysis of the deposited data

How the results depend on the processing

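Each member kept its sign under every alternative run (20 for Tert, which fell below the strict filter, and 21 for each of the others), and Tert, Dkc1, Gar1, Wrap53 and Naf1 were not called in any of them, though DESeq2 gave Tert no adjusted p. With library totals as the only scaling, Nhp2 (-0.65) and Nop10 (-0.58) were not called, so 0 members were lower, and 19 genes of the table and 0 related genes were lower. With the length and GC correction Nhp2 and Nop10 were at -0.34 and -0.45, with that correction and the mouse as a block at -0.33 and -0.44, and with coding length at -0.25 and -0.26. In these 3 fits 0 members, 0 related genes and 0 genes of the table were called in either direction. The block alone left 1 related gene lower in place of 2, as did DESeq2 size factors, and it changed no call among the members. DESeq2 called 1544 genes higher and 1278 lower, among them 16 and 4 related genes. The strict filter gave 11 related genes higher, and 0 were lower without a filter. With a library or a mouse left out, Nhp2 ranged from -0.85 to -0.76 and Nop10 from -0.81 to -0.69. The members lower then numbered 0 to 2, related genes 0 to 8 higher and 0 to 1 lower, and over all genes 0 to 937 were higher and 0 to 713 lower. Without a whole mouse edgeR called 0 genes (by the unadjusted p at 0.05, 1071 to 1921 higher and 748 to 1515 lower), and the adjusted p of Nhp2 and Nop10 reached 0.309. Tert had 12 to 38 counts per library, which limits the precision of its values.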
